A study of Mus musculus with 14 samples.

Results

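The hindbrain *Atoh1* lineage of control mouse embryos was compared between E14.5 and E18.5. The comparison takes 6 of the 14 samples of the series, 3 *E14.5 Ctrl* and 3 *E18.5 Ctrl* libraries of single-cell RNA sequencing, chosen by their stage and genotype labels. Every control embryo carried *Atoh1*Cre/+ and the Cre-dependent TdTomato reporter *Rosa*lsl-tdTomato/+, on a C57BL/6J background. The Cre stands in place of the coding region of 1 *Atoh1* copy, so all controls had a single functional *Atoh1* allele. The whole hindbrain of 1 embryo was dissociated for each library, and TdTomato-positive, DAPI-negative cells were sorted and loaded on the 10x Genomics 3′ v3.1 kit. UMIs, which count single captured mRNA molecules, were summed over all cells with at least 1000 genes and under 10% mitochondrial UMIs, 1 sum per library. These cells numbered 51626 in the 6 libraries, of 104750 in the 12 embryonic libraries. The other 6 embryonic libraries come from *Atoh1*S193A/- littermates with the same reporter, in which the functional copy carries a serine to alanine change, and they serve below as a comparison in embryos that did not enter the contrast of the controls.

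Atoh1 is a basic helix-loop-helix transcription factor of the rhombic lip, the dorsal edge of the developing hindbrain, and its lineage is known to give rise to cerebellar granule cells, unipolar brush cells, deep nuclear neurons and glutamatergic neurons of the pons and medulla. The lower, Hox-expressing rhombic lip is known to release precerebellar neurons, such as those of the pontine nuclei, whereas the upper rhombic lip of rhombomere 1 lies in front of the Hox-expressing territory and feeds the external granule layer, where granule cell precursors divide under Sonic hedgehog until after birth. The label of the sort is permanent, so each library holds progenitors and all of their labeled descendants at its stage.

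The 3 E14.5 libraries held 6407, 8858 and 9713 kept cells and the 3 E18.5 libraries 8061, 9454 and 9133, with sums between 116937816 and 174406996 UMIs per library. Any 2 control libraries shared 13 to 51 cell barcodes. Median UMIs per cell were 16959 to 17593 at E14.5 and 12343.5 to 16772 at E18.5. The reporter cassette, read through its WPRE sequence, was at 344, 263 and 304 CPM at E14.5 and 367, 328 and 276 CPM at E18.5, with overlapping stages (log2 change 0.09 ± 0.13, adjusted p = 0.58). CPM, the usual depth-scaled unit, were computed from UMIs and TMM-scaled library sums, and log2 changes are E18.5 minus E14.5 with the SE of the fit. Summed levels of a gene list use plain library totals, without TMM factors. The file headers name Cell Ranger 3.1.0 for E14.5 Ctrl 1 and 2 but 5.0.1 for E14.5 Ctrl 3 and all E18.5 controls, so software and stage partly coincide. Values from E14.5 Ctrl 3 against the 3 E18.5 libraries are given as within Cell Ranger 5.0.1 for named genes that lost the call there or moved by over 1.5 times. That contrast has a lone E14.5 library, which is assumed to vary like the others. A gene had to reach 1 CPM in at least 3 libraries, so genes low in the E18.5 libraries, such as *Evx1* and *Hoxa7* below, were not tested there. Of the 7561 genes called between the control stages, 7177 were tested in it. A named gene without such a value may therefore be untested. In sums over mixed cells, more cells of a type and more RNA per cell cannot be told apart.

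The stages differed across much of the transcriptome. Of 13590 genes tested with edgeR's quasi-likelihood test (Benjamini-Hochberg adjusted p under 0.05 and an absolute log2 change over 0.25), 3883 (28.6%) were higher and 3678 (27.1%) lower at E18.5, with a median log2 change of 0.02 over all genes tested. The counts of gene lists below are to be read beside these 2 shares. At least 2-fold changes were called for 1033 genes (7.6%) upward and 1014 (7.46%) downward. The 3 libraries of one stage all lay above the 3 of the other for 4651 genes (34.2%) at E18.5 and for 4353 (32%) at E14.5. Scaling by library totals alone moved the median over all genes to 0.11 and the calls to 4657 higher and 2977 lower, so small changes below depend on the scaling.

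The genes with the largest rises included genes of neuropeptides and of secretion. *Tac2*, which encodes the neurokinin B precursor, was at 0.378, 0.153 and 0.544 CPM at E14.5 and 31.6, 17.7 and 21.1 CPM at E18.5. *Nts*, the neurotensin precursor, was at 5.70, 1.28 and 10.5 CPM at E14.5 and 145, 187 and 159 CPM at E18.5. The log2 changes were 6.03 ± 0.45 and 4.81 ± 0.75. *Tac2* was under 1 CPM in each E14.5 library, so it passed the filter on low values through E18.5 alone. *Cadps2*, a dense-core vesicle priming factor of granule cells, was at 9.39, 3.60 and 18.541 CPM at E14.5 and 138, 120.3 and 127 CPM at E18.5 (log2 change 3.61 ± 0.57). *Cxcl14*, a secreted chemokine, was at 5.55, 1.86 and 5.92 CPM at E14.5 and 59.8, 51.2 and 28.0 CPM at E18.5 (3.39 ± 0.50). In all 4 genes E14.5 Ctrl 2 had the lowest value of its stage. *Galnt15* (log2 change 4.38 ± 0.38), *Rassf3* (4.08 ± 0.20), *Mgarp* (3.64 ± 0.35), *Eomes* (3.55 ± 0.27), *Pdgfra* (3.40 ± 0.31) and *Adra2c* (3.35 ± 0.35) complete the 10 largest rises. These were taken from called genes without overlap between stages and with at least 20 CPM at the higher stage. Sex-linked genes were left out. A gap between the stages was thus part of the choice, here and among the falls below. Without E14.5 Ctrl 3 the changes of *Nts* and *Cadps2* were 5.54 and 4.28, within Cell Ranger 5.0.1 those of *Tac2*, *Nts* and *Cadps2* were 5.38, 3.905 and 2.74, and at a mitochondrial limit of 5% that of *Eomes* was 2.87.

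Of the 10 largest falls by the same rule, 5 were Hox genes, which are taken up with their clusters below. The other 5 were *Evx1*, *Evx1os*, *Foxb1*, *Crabp2* and *C1ql4*. *Evx1*, a homeobox gene of V0 and dorsal hindbrain interneurons, was at 18.9, 28.7 and 14.2 CPM at E14.5 and 0.421, 0.146 and 0.427 CPM at E18.5, and its antisense neighbor *Evx1os* at 33.1, 49.4 and 30.0 CPM at E14.5 and 0.479, 0.292 and 0.388 CPM at E18.5. The default counting that the methods name uses strand. The log2 changes of *Evx1* and *Evx1os* were -5.93 ± 0.43 and -6.59 ± 0.28. *Foxb1*, a forkhead gene of caudal hindbrain neurons, was at 21.7, 39.2 and 17.6 CPM at E14.5 and 0.632, 0.223 and 1.04 CPM at E18.5 (-5.36 ± 0.57). *Crabp2*, which encodes a carrier of retinoic acid, was at 64.7, 103 and 52.2 CPM at E14.5 and 1.88, 1.77 and 1.97 CPM at E18.5 (-5.29 ± 0.28), and *C1ql4*, a secreted synaptic C1q-like protein, was at 27.6, 56.2 and 34.0 CPM at E14.5 and 0.804, 0.230 and 0.434 CPM at E18.5 (-6.30 ± 0.49). E14.5 Ctrl 2 was the highest library in all 5 genes. *Evx1*, *Evx1os*, *Foxb1* and *C1ql4* did not reach 1 CPM in every E18.5 library. They passed the filter through E14.5 alone, so a fall was built into their choice. In cells thinned to 5000 UMIs the changes of *Evx1os* and *C1ql4* were -7.21 and -6.93.

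**Figure D1:**
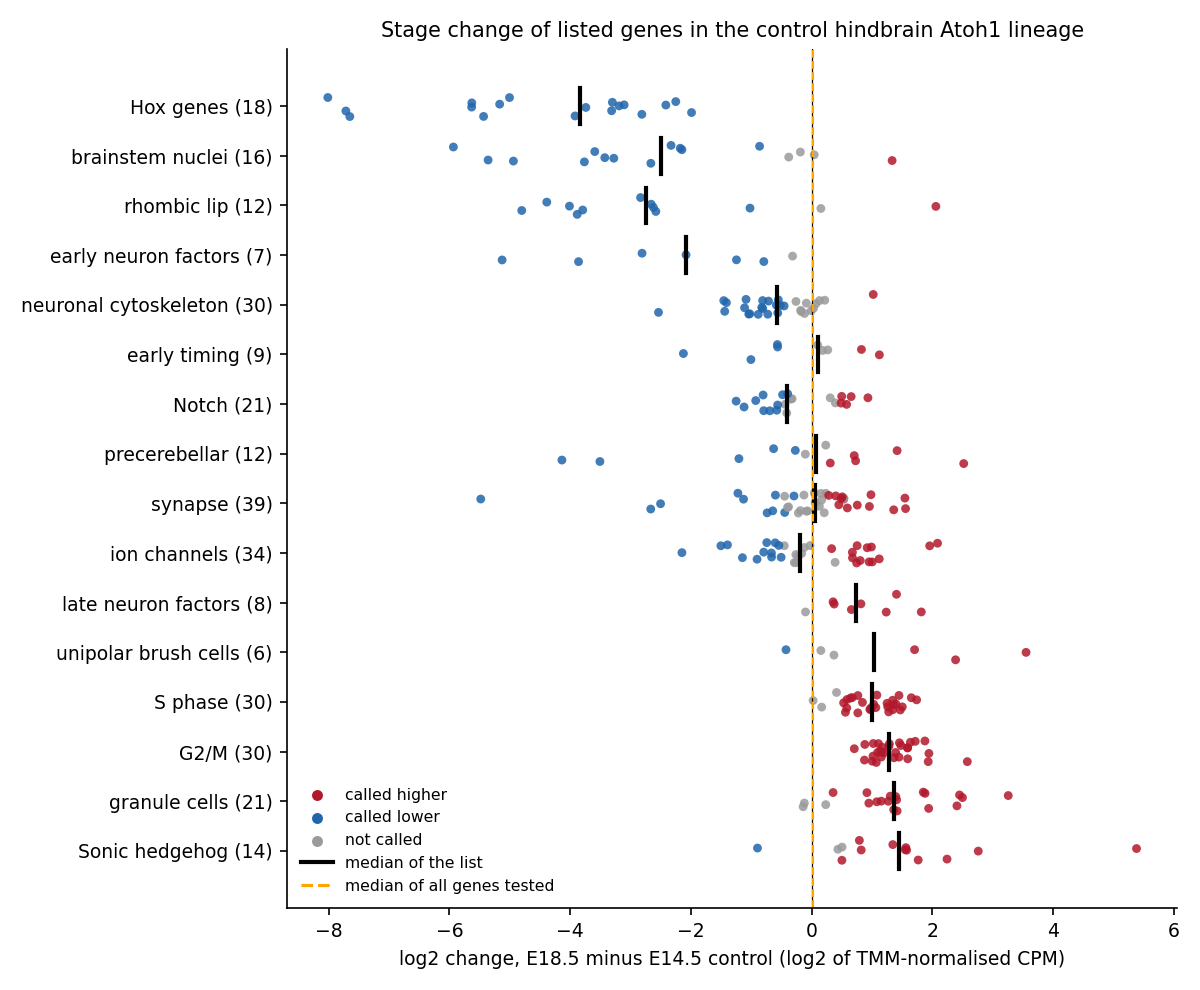
Stage change of each tested member of 16 gene lists (x axis, log2 change of TMM-normalised CPM, E18.5 minus E14.5 control; 1 point per gene, number of genes in brackets, black bars are list medians, the dashed line is the median of all genes tested). All 18 Hox genes tested lie to the left, between -8.01 and -1.99, and all 30 G2/M genes lie to the right, between 0.71 and 2.58.

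Hox genes, homeodomain factors that set position along the hindbrain and spinal cord, fell without exception among those tested. Of 39 members of the 4 clusters, 38 were in the files and 18 passed the filter on low values; the other 20 were left out by it. All 18 were called lower, with a median log2 change of -3.83 against 0.02 over all genes. Of these, 9 reached 1 CPM in all libraries of E14.5 but not of E18.5 and so passed the filter through the stage where they were high, as did 3.94% of all genes tested; a fall was built into their choice, and their count is no support for one. The other 9 passed in the E18.5 libraries too. The falls came from each cluster: 6 of 6 genes tested of HoxA (GRCm38, chr6:52155590-52260880), 8 of 8 of HoxB (chr11:96194316-96368256), 3 of 3 of HoxC (chr15:102921103-103036852) and 1 of 1 of HoxD (chr2:74668310-74765142). The largest adjusted p among them was 0.0028, that of *Hoxb8*.

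The levels of single members follow. *Hoxb3*, a gene of paralog group 3, was at 119, 135 and 104 CPM at E14.5 and 25.1, 25.7 and 39.2 CPM at E18.5, a log2 change of -1.99 ± 0.19. *Hoxa5* was at 219.7, 255 and 178 CPM at E14.5 and 19.6, 14.9 and 37.1 CPM at E18.5, a change of -3.19 ± 0.35. *Hoxb8* was at 65.7, 109.9 and 29.2 CPM at E14.5 and 0.830, 0.407 and 2.86 CPM at E18.5, a change of -5.63 ± 0.90. The stages did not overlap for *Hoxb3* and *Hoxa5*. Nor did they for *Hoxb8*, which passed the filter through E14.5 alone, so a fall was built into its choice. E18.5 Ctrl 3 was the highest library of its stage in each of the 3 genes. The 11 tested genes of paralog groups 2 to 5 had log2 changes between -5.17 and -1.99 with a median of -3.19, and the 7 of groups 6 to 9 between -8.01 and -5.00 with a median of -5.63. All 7 of the latter, and 2 of the former, passed the filter through E14.5 alone, so these ranges are descriptions and were not compared. The genes with the largest changes were *Hoxa7* (20.9, 65.3 and 13.8 CPM at E14.5 and 0.0766, 0.0538 and 0.246 CPM at E18.5), *Hoxc6* (20.4, 57.2 and 15.0 CPM at E14.5 and 0.102, 0.0768 and 0.272 CPM at E18.5) and *Hoxb9* (3.34, 10.9 and 1.90 CPM at E14.5 and 0.0447, 0.00770 and 0.0194 CPM at E18.5), with log2 changes of -8.01 ± 0.92, -7.65 ± 0.78 and -7.71 ± 0.94. Their E18.5 levels rest on few molecules, between 1 and 7 UMIs per E18.5 library for *Hoxb9* and between 7 and 38 for *Hoxa7*, so the sizes of these falls are loosely set.

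Summed over the 14 genes of paralog groups 1 to 5, the level was 1010.0, 1088 and 755 CPM at E14.5 and 109, 98.7 and 175 CPM at E18.5. Over the 12 genes of groups 6 to 9 it was 179, 368 and 93.5 CPM at E14.5 and 2.36, 1.16 and 6.64 CPM at E18.5, and over the 12 genes of groups 10 to 13 it did not exceed 0.39 CPM in any control library. The E14.5 libraries varied among themselves by more in groups 6 to 9 than in groups 1 to 5. Genes of groups 6 to 9 are known to be expressed mainly in the spinal cord and the most caudal hindbrain, and where the hindbrain was cut from the spinal cord in each embryo is not given in the sources used here, so the part of the dissection in these values was not tested. Without E18.5 Ctrl 3 the changes of *Hoxa6*, *Hoxa7*, *Hoxb6*, *Hoxb7*, *Hoxb8* and *Hoxc6* were -6.20, -8.95, -6.08, -6.70, -6.75 and -8.39, and without E18.5 Ctrl 1 that of *Hoxb9* was -8.49.

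**Figure D2:**
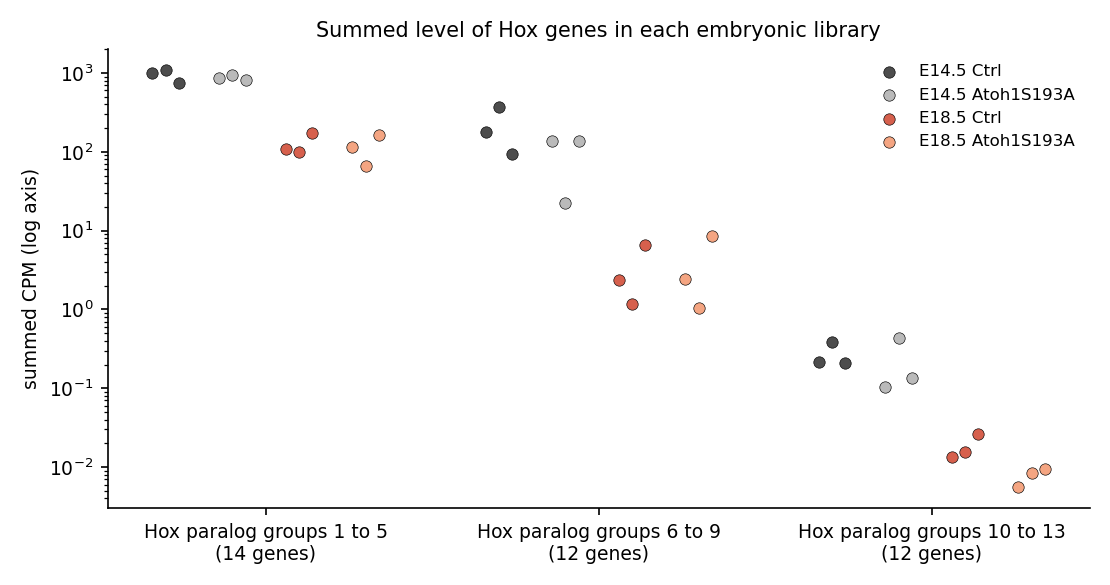
Summed level of Hox genes in each of the 12 embryonic libraries (y axis, summed CPM, log axis; 1 point per library) for paralog groups 1 to 5, 6 to 9 and 10 to 13. In groups 1 to 5 the E14.5 control libraries lie between 755 and 1088 CPM and the E18.5 control libraries between 98.7 and 175, and in groups 6 to 9 the E14.5 Atoh1S193A library 2 lies apart from its stage at 22.6.

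Genes of the midbrain-hindbrain boundary and the first rhombomere moved in both directions, unlike the Hox genes. Of 14 tested, 4 were higher and 9 lower (median log2 change -1.43); 3 passed the filter through E14.5 alone. *En1* and *En2*, engrailed factors of the midbrain and first rhombomere, rose slightly. *En2* was at 39.4, 38.3 and 42.9 CPM at E14.5 and 58.6, 57.5 and 54.1 CPM at E18.5 (0.50 ± 0.08) and *En1* at 42.4, 42.2 and 42.9 CPM at E14.5 and 51.3, 60.0 and 62.7 CPM at E18.5 (0.45 ± 0.09, a call that was lost within Cell Ranger 5.0.1 at 0.39). *Otx2*, a homeobox gene of the rostral brain that is also known in posterior granule cell precursors and unipolar brush cells, was at 92.4, 56.7 and 85.5 CPM at E14.5 and 249, 283 and 232 CPM at E18.5 (1.70 ± 0.18). The Iroquois genes fell. *Irx3* was at 41.7, 49.2 and 38.5 CPM at E14.5 and 1.66, 2.05 and 2.43 CPM at E18.5 (-4.40 ± 0.17), *Irx5* changed by -2.49 ± 0.10 and *Irx1* by -0.74 ± 0.07. *Pax5*, a factor of the boundary region, was at 29.7, 55.0 and 40.0 CPM at E14.5 and 7.01, 6.53 and 5.00 CPM at E18.5 (-2.75 ± 0.24).

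Transcription factors known from early-born neurons fell, and those known from late-born neurons rose. Of 7 factors of early-born neurons 6 were called lower and none higher (median log2 change -2.08); 2 passed the filter through E14.5 alone. *Zfhx3*, a zinc finger homeodomain factor, was at 139, 341 and 189 CPM at E14.5 and 14.1, 20.8 and 11.3 CPM at E18.5 (-3.86 ± 0.40), and its paralog *Zfhx4* at 60.2, 139 and 78.4 CPM at E14.5 and 22.1, 23.1 and 20.3 CPM at E18.5 (-2.08 ± 0.29). *Onecut2*, a cut homeodomain factor, was at 64.3, 92.8 and 69.0 CPM at E14.5 and 34.4, 33.1 and 27.9 CPM at E18.5 (-1.25 ± 0.15). E14.5 Ctrl 2 was the highest library for each of the 3, and no E18.5 library reached the lowest E14.5 library. *Onecut1* and *Onecut3*, both under 10 CPM, changed by -2.81 ± 0.18 and -5.13 ± 0.26. *Zfhx2* (-0.79 ± 0.23) was called with all libraries and lost the call without any 1 of the 3 E18.5 libraries, at -0.76 to -0.80, at a mitochondrial limit of 5% (-0.62) and without the filter on low values (-0.78). *Pou2f2* was at 67.7, 116 and 66.6 CPM at E14.5 and 63.5, 68.6 and 68.7 CPM at E18.5 and was not called (-0.32 ± 0.21, adjusted p = 0.22).

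Among 8 factors of late-born neurons 7 were called higher and none lower (median log2 change 0.74). The nuclear factor I genes, which are known to drive the maturation of granule neurons, rose together. *Nfib* was at 872, 815 and 884 CPM at E14.5 and 1487, 1528 and 1509 CPM at E18.5 (0.82 ± 0.07). *Nfia* was at 209, 167 and 231 CPM at E14.5 and 576, 525 and 507 CPM at E18.5 (1.41 ± 0.13), and *Nfix* at 193, 130.1 and 219.8 CPM at E14.5 and 636, 648 and 628 CPM at E18.5 (1.82 ± 0.18). The spread within a stage was small beside the gap between stages for all 3. *Nfic* changed by 1.24 ± 0.09, and *Tcf4*, a partner of basic helix-loop-helix factors, by 0.66 ± 0.07. *Neurod2* was at 196, 189 and 169 CPM at E14.5 and 212, 245 and 251 CPM at E18.5 (0.35 ± 0.09), a call lost without E14.5 Ctrl 3 (0.26), and at a mitochondrial limit of 5% its difference was -0.00297. *Zbtb20* (0.37 ± 0.12) lost its call in several alternatives, without E14.5 Ctrl 1 (0.37), E14.5 Ctrl 3 (0.21), E18.5 Ctrl 1 (0.37) or E18.5 Ctrl 2 (0.35) among them. *Neurod6* was not called (-0.10 ± 0.14, adjusted p = 0.55) except at a mitochondrial limit of 5% (-0.48).

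The timing genes of early progenitors, targets or partners of the Lin28-let-7 axis among them, had no common direction. Of 12 members 9 were tested, 2 called higher and 4 lower (median log2 change 0.10). *Hmga2*, a chromatin protein of young stem cells, was at 7.61, 10.5 and 6.05 CPM at E14.5 and 1.5004, 1.51 and 2.54 CPM at E18.5 (-2.12 ± 0.28). *Igf2bp2*, an mRNA-binding protein, was at 29.6, 33.5 and 27.1 CPM at E14.5 and 14.9, 14.8 and 15.2 CPM at E18.5 (-1.01 ± 0.09). Its paralogs *Igf2bp1* (0.27 ± 0.10, adjusted p = 0.052) and *Igf2bp3* (0.10 ± 0.10, adjusted p = 0.42) were not called; *Igf2bp1* was called in 7 of 19 alternatives, with changes of 0.25 to 0.35, among them library totals alone, thinned cells, without E18.5 Ctrl 3 and with the replicate number as a block (adjusted p = 0.023). *Hmga1* was not called either (0.18 ± 0.42, adjusted p = 0.73). *Lin28b* (-0.57 ± 0.17) lost its call without E14.5 Ctrl 2 (-0.48), E18.5 Ctrl 1 (-0.46) or E18.5 Ctrl 2 (-0.48), and *Nr6a1* (-0.56 ± 0.14) without E18.5 Ctrl 2 (-0.48); both also lost it within Cell Ranger 5.0.1. *Dnmt3b* (0.82 ± 0.14) and *Prtg* (1.12 ± 0.18) were the 2 called higher, both under 10 CPM.

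**Figure D3:**
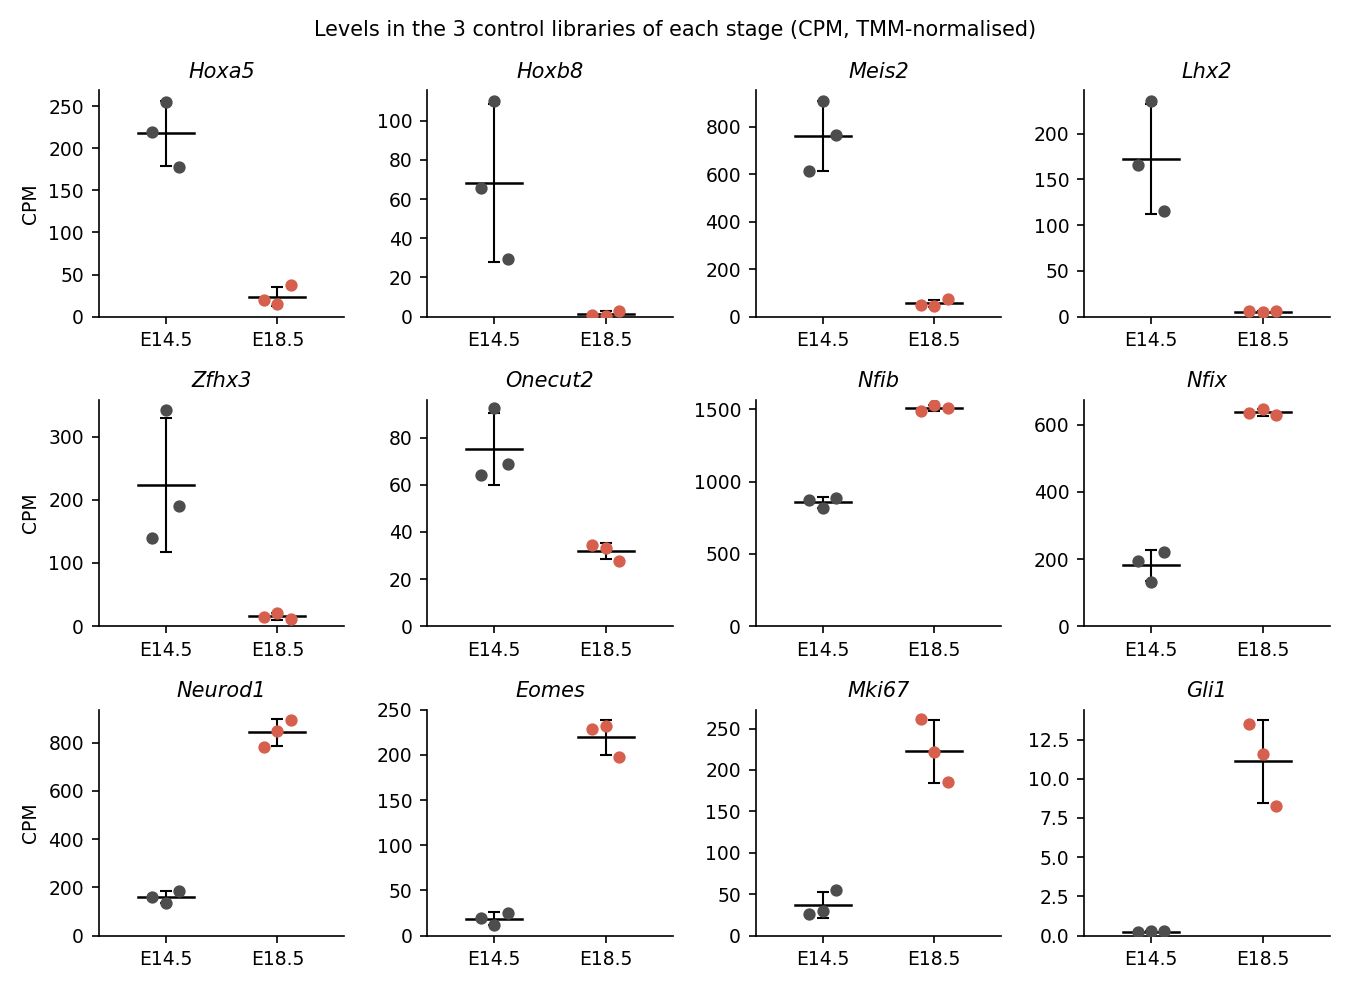
Levels of 12 genes (y axes, TMM-normalised CPM from 0; points are the 3 control libraries of each stage, bars the mean and SD). *Hoxa5*, *Hoxb8*, *Meis2*, *Lhx2*, *Zfhx3* and *Onecut2* are lower, and *Nfib*, *Nfix*, *Neurod1*, *Eomes*, *Mki67* and *Gli1* higher, in every E18.5 library than in any E14.5 library. *Hoxb8* passed the filter through E14.5 alone and *Gli1* through E18.5 alone.

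Genes of the rhombic lip progenitor zone were mostly lower at E18.5. Of 14 members 12 were tested, 10 called lower and 1 higher (median log2 change -2.75); 6 passed the filter through E14.5 alone, so the count is a description. *Atoh1* itself, on chromosome 6, was at 92.4, 50.9 and 50.6 CPM at E14.5 and 34.4, 33.8 and 27.3 CPM at E18.5 (-1.02 ± 0.24, adjusted p = 0.0084), with E14.5 Ctrl 1 standing above the other E14.5 libraries. *Olig3*, a partner of *Atoh1* in dorsal progenitors, was at 42.5, 37.6 and 23.3 CPM at E14.5 and 5.38, 5.12 and 5.86 CPM at E18.5 (-2.66 ± 0.22). *Msx1*, a homeobox target of dorsal BMP signals, was at 39.4, 38.9 and 22.3 CPM at E14.5 and 5.87, 5.33 and 5.17 CPM at E18.5 (-2.62 ± 0.22). The 3 genes were lower in every E18.5 library. *Msx2* and *Msx3* changed by -4.01 ± 0.30 and -4.80 ± 0.35, the Wnt ligands *Wnt1* and *Wnt3a* by -3.88 ± 0.29 and -4.39 ± 0.39, and the Wnt agonists *Rspo1* and *Rspo3* by -3.79 ± 0.20 and -2.83 ± 0.20. *Rspo2*, of the same family as *Rspo1*, went the other way at 2.36, 1.69 and 2.61 CPM at E14.5 and 9.02, 8.46 and 10.2 CPM at E18.5 (2.06 ± 0.18). *Lmx1b* fell (-2.58 ± 0.33), whereas *Lmx1a*, a LIM factor of the roof plate and unipolar brush cells, was at 22.2, 20.7 and 19.960 CPM at E14.5 and 23.6, 22.4 and 23.9 CPM at E18.5 and was not called (0.15 ± 0.08, adjusted p = 0.12). *Lmx1a* was called with the opposite sign at a mitochondrial limit of 5% (-0.42) and called at 0.80 in thinned cells. The change of *Rspo2* was 1.32 at the 5% limit and 2.77 in thinned cells, that of *Rspo1* was -4.47 at the 5% limit, and that of *Msx2* was -3.41 within Cell Ranger 5.0.1. The summed level of 5 choroid plexus markers, a roof plate derivative, moved in the same direction (5.77 to 164 CPM at E18.5 against 858 to 3066 at E14.5, no marker at 0), and its part in the rhombic lip values was not tested.

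Markers of brainstem nuclei born early from the *Atoh1* lineage fell as well. Of 17 members 16 were tested, 3 of them passing the filter through E14.5 alone, and 12 were called lower and 1 higher (median log2 change -2.50). *Meis2*, a TALE homeodomain factor, was at 613, 908 and 766 CPM at E14.5 and 48.3, 45.9 and 74.1 CPM at E18.5 (-3.76 ± 0.24). *Lhx2*, a LIM homeodomain factor of dorsal hindbrain and spinal interneurons, was at 166, 235 and 115 CPM at E14.5 and 5.83, 4.94 and 6.04 CPM at E18.5 (-4.94 ± 0.28). *Pou4f1*, also called Brn3a, was at 31.9, 51.8 and 23.1 CPM at E14.5 and 2.68, 2.79 and 3.39 CPM at E18.5 (-3.59 ± 0.30). None of the 3 overlapped between stages. *Evx1* and *Foxb1*, given above, belong to this list too, and *Ebf1* changed by -0.86 ± 0.22. *Barhl2*, a Bar-class homeobox gene of the *Atoh1* lineage, was the 1 member that rose, at 20.1, 26.6 and 18.6 CPM at E14.5 and 60.7, 58.6 and 45.3 CPM at E18.5 (1.33 ± 0.16). *Ebf3* was at 197, 253 and 195 CPM at E14.5 and 204, 194 and 169 CPM at E18.5 and was not called (-0.19 ± 0.12) except with sex of the embryo as a covariate (-0.28).

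Granule cell genes rose. Of 24 members 21 were tested, 18 called higher and none lower (median log2 change 1.36), and their summed level was 2211 to 2618 CPM at E14.5 and 6034 to 6107 CPM at E18.5. Of the 21, 2 passed the filter through E18.5 alone, so a rise was built into their choice. *Neurod1*, a basic helix-loop-helix factor of differentiating granule cells, was at 159, 134 and 184 CPM at E14.5 and 783, 848 and 895 CPM at E18.5 (2.41 ± 0.13). *Pax6* was at 249, 166 and 236 CPM at E14.5 and 541, 621 and 571 CPM at E18.5 (1.42 ± 0.15), and *Zic1*, a zinc finger factor of granule cell precursors, at 474, 401 and 469.6 CPM at E14.5 and 1148, 1178 and 1206 CPM at E18.5 (1.39 ± 0.09). Each of these 3 factors had E14.5 Ctrl 2 as its lowest library. *Reln*, the secreted reelin, changed by 1.94 ± 0.13, the netrin receptor gene *Unc5c* by 1.88 ± 0.12, *Tlx3* by 2.50 ± 0.31, *Barx2* by 2.45 ± 0.49, *Rbfox3* by 1.41 ± 0.06 and *Cbln1* by 1.36 ± 0.06. *Barhl1*, a factor of granule and precerebellar neurons, was at 273, 192 and 226 CPM at E14.5 and 282, 273 and 258 CPM at E18.5 and was not called (0.23 ± 0.13, adjusted p = 0.15); it was called without E14.5 Ctrl 1 (0.34) and in thinned cells (0.38). *Gabra6*, *Gabrd* and *Cbln3*, markers of mature granule cells, were under the filter.

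The unipolar brush cell markers, of which all 6 were tested, gave 3 called higher and 1 lower (median log2 change 1.04). *Eomes*, a T-box factor of these interneurons, was at 19.1, 11.6 and 25.4 CPM at E14.5 and 229, 232 and 197 CPM at E18.5 (3.55 ± 0.27). It was higher in all E18.5 libraries, as was *Otx2* above. *Plcb4* (-0.42 ± 0.13) lost its call without E14.5 Ctrl 3 (-0.43), E18.5 Ctrl 1 (-0.38) or E18.5 Ctrl 2 (-0.35) and at a mitochondrial limit of 5% (-0.28). *Calb2* was at 69.0, 55.8 and 103 CPM at E14.5 and 104, 77.4 and 113 CPM at E18.5 with overlapping stages and was not called (0.37 ± 0.23, adjusted p = 0.21); it was called without E14.5 Ctrl 3 (0.62), in thinned cells (1.06) and with the replicate number as a block (0.40, adjusted p = 0.021).

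Precerebellar genes split evenly. All 12 were tested, with 5 called higher and 5 lower (median log2 change 0.06), beside 28.6% and 27.1% of all genes tested. *Crabp1*, a retinoic acid carrier, was at 802, 1015 and 886 CPM at E14.5 and 48.3, 47.6 and 57.7 CPM at E18.5 (-4.14 ± 0.13). *Robo3*, the receptor that lets commissural and precerebellar neurons approach the midline, was at 57.7, 97.4 and 50.4 CPM at E14.5 and 6.01, 5.91 and 6.15 CPM at E18.5 (-3.51 ± 0.25). In the other direction *Unc5b*, a netrin receptor known in late-stage precerebellar migration, was at 3.77, 2.71 and 4.12 CPM at E14.5 and 22.9, 19.953 and 17.9 CPM at E18.5 (2.52 ± 0.18). *Mab21l2* (-1.20 ± 0.14) and *Nr2f1* (-0.63 ± 0.11) fell, and *Dcc* (0.71 ± 0.10), the netrin receptor of attraction, and *Nhlh1* (0.73 ± 0.14), a factor of newly born neurons, rose. *Pax6*, with its values among the granule cell genes, counts here too. Several members of this list are also expressed by other *Atoh1* neurons, so the counts do not isolate 1 nucleus.

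Genes of DNA replication and mitosis were higher at E18.5. Of 30 S phase genes 27 were called higher and none lower (median log2 change 1.01), and of 30 G2/M genes all 30 were called higher (median 1.28). *Mki67*, a protein of the mitotic chromosome surface, was at 26.4, 29.9 and 55.5 CPM at E14.5 and 261, 222 and 185 CPM at E18.5 (2.58 ± 0.30, and 1.952 within Cell Ranger 5.0.1). *Top2a*, the topoisomerase that untangles chromosomes before division, was at 67.9, 78.9 and 136 CPM at E14.5 and 375, 391 and 323 CPM at E18.5 (1.94 ± 0.25). *Dtl*, which marks the licensing factor Cdt1 for destruction, was at 14.033, 10.1 and 15.7 CPM at E14.5 and 49.967, 46.4 and 36.3 CPM at E18.5 (1.74 ± 0.19). E14.5 Ctrl 3 was the highest E14.5 library in all 3 genes, and E18.5 Ctrl 3 the lowest E18.5 library, without overlap. *Kif11* and *Cenpe*, a spindle motor and a centromere motor, changed by 1.93 ± 0.26 and 1.88 ± 0.23, and *Uhrf1* and *Exo1* of the S phase list by 1.65 ± 0.16 and 1.47 ± 0.17. The 3 S phase genes not called were chosen for naming after their values were seen, *Rfc2* (0.02 ± 0.09), *Slbp* (0.17 ± 0.09) and *Chaf1b* (0.41 ± 0.20). Within Cell Ranger 5.0.1 the change of *Mki67* was 1.95.

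The promoters of these 2 lists are shown because their members moved together and are known to answer to different cycle signals, E2F factors for S phase genes and the DREAM complex at the CHR element for G2/M genes. RefSeq windows (GRCm38.p6, 250 bases before to 50 after a start site, the first window listed for a gene) were found for 23 of 30 S phase and 27 of 30 G2/M genes. An E2F motif, spelled TTTCCCGC or TTTGGCGC and searched on both strands, stood in 9 of 23 S phase windows (39.1%), in 0 of 27 G2/M windows and in 441 of 27025 windows of all genes (1.63%). The CHR motif, spelled TTTGAA and searched on both strands, stood in 20 of 27 G2/M windows (74.1%), in 4 of 23 S phase windows (17.4%) and in 4893 windows of all genes (18.1%). The 2 motifs cannot overlap by their spelling, and a match describes letters and is no binding site. For each list the 2 genes with the largest rise among those with a match and at least 10 CPM at E18.5 follow, a choice made after their values were seen, with motif matches of either strand in capitals, *Dtl* at chr1:191575495-191575794 and *Mcm3* at chr1:20820263-20820562 for E2F, *Mki67* at chr7:135716330-135716629 and *Top2a* at chr11:99024140-99024439 for CHR, all on the minus strand.
Dtl: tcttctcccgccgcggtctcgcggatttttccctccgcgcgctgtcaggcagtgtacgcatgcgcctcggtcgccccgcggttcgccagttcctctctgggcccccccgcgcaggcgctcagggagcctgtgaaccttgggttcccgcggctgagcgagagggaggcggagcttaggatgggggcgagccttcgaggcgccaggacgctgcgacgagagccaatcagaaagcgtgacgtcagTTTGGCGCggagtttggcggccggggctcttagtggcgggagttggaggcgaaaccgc
Mcm3: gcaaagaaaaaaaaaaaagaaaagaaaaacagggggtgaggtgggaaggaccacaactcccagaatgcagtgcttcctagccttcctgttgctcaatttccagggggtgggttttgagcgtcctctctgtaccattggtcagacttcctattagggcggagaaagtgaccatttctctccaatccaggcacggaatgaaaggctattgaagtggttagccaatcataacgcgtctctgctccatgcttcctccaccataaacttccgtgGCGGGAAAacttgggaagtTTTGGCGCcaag
Mki67: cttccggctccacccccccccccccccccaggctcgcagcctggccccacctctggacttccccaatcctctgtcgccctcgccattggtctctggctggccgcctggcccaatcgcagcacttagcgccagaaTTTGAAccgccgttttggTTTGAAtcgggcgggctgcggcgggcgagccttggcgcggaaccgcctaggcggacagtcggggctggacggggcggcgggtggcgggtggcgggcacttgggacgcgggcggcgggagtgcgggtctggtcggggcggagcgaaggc
Top2a: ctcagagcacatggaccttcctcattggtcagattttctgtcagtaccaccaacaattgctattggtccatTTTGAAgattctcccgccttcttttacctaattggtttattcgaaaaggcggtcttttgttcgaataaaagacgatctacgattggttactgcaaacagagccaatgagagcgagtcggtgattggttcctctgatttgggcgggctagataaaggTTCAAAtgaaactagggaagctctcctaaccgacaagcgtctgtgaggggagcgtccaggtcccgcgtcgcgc

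*Mcm3*, a subunit of the replicative helicase, was at 22.9, 16.0 and 26.5 CPM at E14.5 and 65.8, 64.3 and 48.3 CPM at E18.5 (1.45 ± 0.20), with E2F letters on both strands of its window. *Mki67* and *Top2a* each held 2 CHR matches and *Dtl* 1 E2F match. All 4 genes were higher in every E18.5 library than in any E14.5 library.

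Regulators of the cycle were called higher in 12 and lower in 5 of 20 tested (22 members, median log2 change 0.80). *Ccnd2*, the D-type cyclin of granule cell precursors, was at 226, 152 and 276 CPM at E14.5 and 879.8, 1111 and 753 CPM at E18.5 (2.07 ± 0.23). Its partner kinase gene *Cdk6* was at 5.90, 3.45 and 5.71 CPM at E14.5 and 54.2, 48.2 and 39.2 CPM at E18.5 (3.23 ± 0.23). *Cdkn1c*, the cell cycle inhibitor p57, was at 359.6, 458 and 399 CPM at E14.5 and 46.4, 54.2 and 74.8 CPM at E18.5 (-2.79 ± 0.19). None of the 3 overlapped between stages. *Ccnd1*, another D-type cyclin, changed by 1.55 ± 0.13, *Ccne2* by 1.80 ± 0.17 and *Cdkn2c*, the inhibitor p18, by 2.09 ± 0.30. *Myc* (-1.24 ± 0.21), *Ccnd3* (-0.39 ± 0.10) and *Cdkn2d* (-0.31 ± 0.07) fell, the last with no call when scaled by library totals alone (-0.23).

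The Sonic hedgehog pathway, which is known to drive the division of granule cell precursors, was higher. Of 16 members 14 were tested, 11 called higher and 1 lower (median log2 change 1.45), while the ligand gene *Shh* was under the filter. Of the 14, 2 passed the filter through E18.5 alone, as did 3.75% of all genes tested, so a rise was built into their choice. *Gli1*, an effector and target of the pathway, was at 0.240, 0.269 and 0.284 CPM at E14.5 and 13.5, 11.6 and 8.27 CPM at E18.5 (5.38 ± 0.23). *Gli2* was at 2.60, 1.79 and 2.98 CPM at E14.5 and 19.2, 17.1 and 13.6 CPM at E18.5 (2.76 ± 0.22). *Gli1* was below 0.3 CPM in each E14.5 library and passed the filter through E18.5 alone. The co-receptor gene *Boc* was at 10.2, 6.36 and 8.67 CPM at E14.5 and 32.9, 28.8 and 24.1 CPM at E18.5 (1.76 ± 0.19), whereas *Cdon*, a co-receptor of the same family, was the 1 member called lower, at 18.525, 17.3 and 13.1 CPM at E14.5 and 9.97, 8.29 and 7.95 CPM at E18.5 (-0.90 ± 0.15).

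The Notch pathway, which holds progenitors back from differentiation, had more falls than rises, 10 of 21 tested called lower and 5 higher (median log2 change -0.41). Over all genes tested 27.1% were called lower and 28.6% higher, and the Notch count of rises is near the latter share. Of the 21, 1 passed the filter through E18.5 alone. The ligand genes *Dll1* and *Dll3* were at 15.2, 10.2 and 9.29 CPM at E14.5 and 4.83, 4.39 and 5.32 CPM at E18.5 (-1.25 ± 0.20) and at 37.1, 35.5 and 31.5 CPM at E14.5 and 16.6, 16.6 and 14.8 CPM at E18.5 (-1.12 ± 0.09). *Notch4* (-0.80 ± 0.11) and *Dtx1* (-0.56 ± 0.10) fell. *Rbpj*, the DNA-binding partner of Notch, was at 64.4, 83.5 and 78.3 CPM at E14.5 and 98.5, 116 and 105 CPM at E18.5 (0.50 ± 0.11). *Notch1* (0.65 ± 0.17) lost its call without E14.5 Ctrl 3 (0.60) and at a mitochondrial limit of 5% (0.39), and *Hey1* (0.93 ± 0.29) lost its call in 7 alternatives, without either E14.5 Ctrl 2 (0.71) or E18.5 Ctrl 1 (0.83) among them. *Hes1* was at 61.4, 50.4 and 45.0 CPM at E14.5 and 35.4, 50.2 and 32.1 CPM at E18.5 and was not called (-0.41 ± 0.18, adjusted p = 0.09); it was called by DESeq2 (-0.43), in thinned cells (-0.46) and without E18.5 Ctrl 2 (-0.62).

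Genes of the axonal cytoskeleton were mostly lower. Of 31 members 30 were tested, 19 called lower and 1 higher (median log2 change -0.57). *Tubb3*, the neuronal beta-tubulin, was at 2729.7, 3529 and 2824 CPM at E14.5 and 1021, 1056 and 1235 CPM at E18.5 (-1.46 ± 0.12). *Ina*, alpha-internexin, was at 1193, 1842 and 1321 CPM at E14.5 and 489, 513 and 604 CPM at E18.5 (-1.44 ± 0.17), and *Nefl*, the light neurofilament chain, at 631, 768 and 683 CPM at E14.5 and 243, 237 and 302 CPM at E18.5 (-1.41 ± 0.12). *Prph*, peripherin, changed by -2.54 ± 0.23. The stages did not overlap for these 4 genes. *Map1a*, a microtubule protein of maturing neurons, was the 1 member that rose, at 31.7, 43.9 and 49.9 CPM at E14.5 and 92.7, 81.0 and 80.9 CPM at E18.5 (1.02 ± 0.16). Of 8 pan-neuronal markers 3 were called lower and 1 higher (median -0.09), with a summed level of 7517 to 8807 CPM at E14.5 and 5450.0 to 6303 CPM at E18.5, and their part in the cytoskeletal values was not tested. *Elavl4* changed by -0.71 ± 0.09, *Stmn2* by -0.46 ± 0.11 and *Elavl3* was not called (0.20 ± 0.12) except without E14.5 Ctrl 2 (0.30).

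Of 39 synaptic genes 13 were called higher and 10 lower (median log2 change 0.06), shares near those over all genes tested (28.6% and 27.1%). *Syt1*, the calcium sensor of release, was at 141, 166 and 187 CPM at E14.5 and 282, 305 and 390.0 CPM at E18.5 (0.98 ± 0.15). *Cplx2*, a complexin, was at 72.0, 59.4 and 111 CPM at E14.5 and 222, 248 and 237 CPM at E18.5 (1.54 ± 0.21), and *Sv2b*, a vesicle glycoprotein, at 23.1, 20.2 and 26.2 CPM at E14.5 and 65.5, 67.5 and 71.1 CPM at E18.5 (1.56 ± 0.11). Among the falls were secreted synapse organizers. *Cbln2* was at 64.6, 126 and 63.9 CPM at E14.5 and 13.0, 11.6 and 15.6 CPM at E18.5 (-2.67 ± 0.29), *C1ql3* at 54.0, 96.4 and 78.9 CPM at E14.5 and 9.64, 12.4 and 18.4 CPM at E18.5 (-2.50 ± 0.29), and *C1ql1* changed by -1.22 ± 0.22. *Cbln1*, the cerebellin of granule cells, was at 82.5, 79.9 and 85.5 CPM at E14.5 and 215, 208 and 213 CPM at E18.5 and rose (1.36 ± 0.06). *Syt4* (-0.74 ± 0.19) was not called within Cell Ranger 5.0.1 (-0.80).

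Receptor and channel genes were called in both directions, as were genes at large. Of 24 glutamate receptor genes 9 were called higher and 8 lower (median log2 change 0.05). *Grik2* was at 27.3, 21.1 and 29.1 CPM at E14.5 and 74.8, 68.2 and 73.9 CPM at E18.5 (1.49 ± 0.12), whereas *Gria3* was at 21.7, 29.4 and 25.2 CPM at E14.5 and 9.32, 8.24 and 11.1 CPM at E18.5 (-1.41 ± 0.15). *Grik3* (1.23 ± 0.17) rose, and *Gria1* (-1.85 ± 0.24), *Grin3a* (-1.29 ± 0.30) and *Grik1* (-1.10 ± 0.24) fell, the last 2 without a call at a mitochondrial limit of 5% (-0.90 and -0.75). *Grik1* was also not called within Cell Ranger 5.0.1 (-0.98).

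Of 14 GABA and glycine receptor genes tested 3 were called higher and 4 lower (median 0.21), again near the shares over all genes. *Gabrg1* was at 3.57, 2.03 and 5.59 CPM at E14.5 and 16.8, 19.8 and 34.4 CPM at E18.5 (2.67 ± 0.42), with E18.5 Ctrl 3 highest, and its change was 2.04 within Cell Ranger 5.0.1. *Glrb*, the anchoring subunit of the glycine receptor, changed by 0.56 ± 0.13 and lost the call within Cell Ranger 5.0.1 (0.40). *Gabra3* changed by -1.01 ± 0.25, a call lost at a mitochondrial limit of 5% (-0.75).

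Of 34 ion channel genes tested 13 were called higher and 12 lower (median -0.20). *Scn8a*, the sodium channel Nav1.6 of mature axons, was at 23.1, 26.5 and 23.6 CPM at E14.5 and 47.9, 48.3 and 50.6 CPM at E18.5 (1.00 ± 0.08), and *Scn3a*, the embryonic Nav1.3, at 79.5, 109.5 and 84.4 CPM at E14.5 and 30.2, 30.1 and 43.7 CPM at E18.5 (-1.39 ± 0.18). These 2 sodium channels moved in opposite directions without overlap. *Kcnd3* (1.12 ± 0.12) and *Kcnd2* (0.99 ± 0.17), potassium channels of the A current, rose, and *Cacna1h* (-2.15 ± 0.21), a T-type calcium channel, *Scn1a* (-1.15 ± 0.24) and *Scn9a* (-0.90 ± 0.20) fell.

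Among 12 transmitter genes tested, 3 were called higher and 5 lower (median -0.48), and 2 passed the filter through E14.5 alone and 2 through E18.5 alone. *Slc17a6*, the vesicular glutamate transporter VGLUT2, was at 127, 164 and 142 CPM at E14.5 and 99.2, 99.997 and 111 CPM at E18.5 (-0.48 ± 0.10). *Slc17a7*, VGLUT1, which is known to follow VGLUT2 in maturing cerebellar neurons, was at 1.5974, 0.892 and 2.60 CPM at E14.5 and 9.73, 10.8 and 10.1 CPM at E18.5 (2.59 ± 0.34, and 1.92 within Cell Ranger 5.0.1). *Slc12a2*, the chloride importer NKCC1, changed by 0.79 ± 0.09. *Slc12a5*, the chloride exporter KCC2, changed by -0.68 ± 0.22, but lost the call without any 1 of E14.5 Ctrl 2 (-0.72), E14.5 Ctrl 3 (-0.65), E18.5 Ctrl 1 (-0.56) or E18.5 Ctrl 2 (-0.52), within Cell Ranger 5.0.1 (-0.85) and at a mitochondrial limit of 5% (-0.49).

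Axon guidance genes were divided, 17 of 46 called higher and 18 lower (median 0.00), beside 28.6% and 27.1% of all genes tested. *Unc5c* was at 93.6, 73.9 and 103 CPM at E14.5 and 325, 332 and 338 CPM at E18.5 (1.88 ± 0.12), and *Plxnb2*, a plexin known in granule cell precursors, at 33.3, 32.1 and 36.4 CPM at E14.5 and 161, 134 and 108 CPM at E18.5 (1.98 ± 0.14). *Robo1* was at 40.6, 66.6 and 46.8 CPM at E14.5 and 16.4, 13.986 and 17.7 CPM at E18.5 (-1.68 ± 0.19), and the ephrin receptor gene *Epha4* at 47.3, 48.2 and 50.6 CPM at E14.5 and 11.2, 10.2 and 21.3 CPM at E18.5 (-1.77 ± 0.27). The netrin receptors *Unc5b* and *Unc5c* thus rose while *Robo1*, a Slit receptor, and *Robo3* fell. *Plxnd1* changed by 2.25 ± 0.47 (1.48 within Cell Ranger 5.0.1) and the ephrin gene *Efna3* by -1.92 ± 0.15.

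Of 8 trophic factor and receptor genes tested, 4 were called higher and 2 lower (median 0.15), and 1 passed the filter through E14.5 alone and 1 through E18.5 alone. *Ntf3*, neurotrophin 3, was at 3.20, 0.721 and 6.26 CPM at E14.5 and 33.4, 31.2 and 32.5 CPM at E18.5 (3.25 ± 0.69); its change was 4.03 without E14.5 Ctrl 3, 3.99 with sex of the embryo as a covariate and 2.32 within Cell Ranger 5.0.1. *Ntrk2*, the receptor TrkB, was at 58.7, 71.4 and 68.0 CPM at E14.5 and 115, 115 and 128 CPM at E18.5 (0.85 ± 0.09). *Igf1r* changed by 0.47 ± 0.13, but was not called without E14.5 Ctrl 3 (0.39). *Bdnf* (-0.85 ± 0.26) and *Ngfr* (0.51 ± 0.16) each lost the call without any 1 of 4 libraries, for *Bdnf* E14.5 Ctrl 2 (-0.77), E14.5 Ctrl 3 (-0.92), E18.5 Ctrl 1 (-0.78) and E18.5 Ctrl 2 (-0.61), and for *Ngfr* E14.5 Ctrl 1 (0.36), E14.5 Ctrl 3 (0.52), E18.5 Ctrl 1 (0.39) and E18.5 Ctrl 2 (0.53). Both also lost it within Cell Ranger 5.0.1 (-0.81 and 0.39), *Bdnf* at a mitochondrial limit of 5% (-0.57), and *Ngfr* without the cells with the most UMIs (0.41) and in thinned cells (0.37). With the replicate number as a block *Ngfr* was not called either (adjusted p = 0.053).

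Markers of cells outside the glutamatergic *Atoh1* lineage were present at both stages. Of 10 inhibitory neuron genes tested 7 were called lower and 1 higher, with a summed level of 87.1 to 149 CPM at E14.5 and 108 to 133 CPM at E18.5. Through E14.5 alone 3 of the 10 passed the filter, and through E18.5 alone 1, so the count is a description. *Lhx5* changed by -2.86 ± 0.34 (-2.09 within Cell Ranger 5.0.1) and *Tfap2b* by -2.84 ± 0.47, while *Lhx1* was at 53.0, 62.1 and 43.9 CPM at E14.5 and 86.9, 111 and 91.7 CPM at E18.5 and rose (0.87 ± 0.14). *Gad2* (-1.03 ± 0.27) lost the call without E18.5 Ctrl 1 (-0.93) or E18.5 Ctrl 2 (-0.92), at a mitochondrial limit of 5% (-0.51) and within Cell Ranger 5.0.1 (-0.40). Of 5 Purkinje cell genes tested 1 was called higher, *Itpr1* (1.07 ± 0.15), and 2 lower, *Rora* (-0.77 ± 0.14) and *Calb1* (-1.41 ± 0.42). *Calb1* lost the call without E14.5 Ctrl 1 (-1.42), E14.5 Ctrl 3 (-1.46), E18.5 Ctrl 1 (-1.11) or E18.5 Ctrl 2 (-1.16), within Cell Ranger 5.0.1 (-1.40) and without the filter (-1.398), and changed by -2.14 without E18.5 Ctrl 3.

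Glial markers gave 2 called higher and 1 lower of 11 tested (median 0.11), with summed levels of 403 to 480 CPM at E14.5 and 352 to 550 CPM at E18.5. Of the 11, 2 passed the filter through E18.5 alone. *Sox2* fell (-1.02 ± 0.13). *Fabp7*, brain lipid-binding protein of radial glia, was at 210.4, 152 and 192 CPM at E14.5 and 94.1, 97.0 and 248 CPM at E18.5 and was not called (-0.34 ± 0.39); without E18.5 Ctrl 3 its change was -0.94 and was called (adjusted p = 0.0018). Oligodendrocyte lineage genes gave 3 higher and 2 lower of 7, with 1 passing the filter through E14.5 alone and 1 through E18.5 alone. *Pdgfra*, the growth factor receptor of oligodendrocyte precursors, was at 3.47, 1.73 and 3.50 CPM at E14.5 and 38.4, 29.4 and 23.6 CPM at E18.5, *Mbp* changed by 0.70 ± 0.10 and *Olig2* by -0.79 ± 0.13, while *Sox10* was under the filter.

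Non-neural markers were mainly lower or spread widely. At E14.5 choroid plexus transcripts were the most abundant of them, with *Ttr*, transthyretin, at 1929, 876 and 3187 CPM at E14.5 and 108, 156 and 0.537 CPM at E18.5. E18.5 Ctrl 3 was nearly free of it, and the change was not called (-4.50 ± 1.95, adjusted p = 0.11), but was called by DESeq2 and without E18.5 Ctrl 3 (-3.91), the smallest of its values over the alternatives, which reached -7.07 with sex of the embryo as a covariate. *Kcne2*, a potassium channel subunit of the choroid plexus, was called lower (-5.84 ± 0.69). Of 4 choroid plexus genes tested, 3 passed the filter through E14.5 alone. All 5 meningeal genes were called lower, 2 of them having passed the filter through E14.5 alone, with a summed level of 29.9 to 93.6 CPM at E14.5 and 5.65 to 18.1 CPM at E18.5, as were 4 of 6 vascular genes tested (27.7 to 35.03 against 12.3 to 30.7 CPM), *Kdr* (-0.75 ± 0.15) and *Col4a2* (-1.31 ± 0.26) among them. Of the 6 vascular genes, 2 passed the filter through E14.5 alone. *Col3a1* (-2.36 ± 0.56) was -1.68 without E14.5 Ctrl 1, and *Col1a2* (-2.25 ± 0.59) -1.56. Within Cell Ranger 5.0.1 these 2 changed by -1.76 and -1.63, the latter without a call. *Col1a2* was not called without E18.5 Ctrl 1 (-2.14) or E18.5 Ctrl 3 (-1.92), and *Dcn* (-2.45 ± 0.61) was -3.21 without E18.5 Ctrl 2. Without the filter on low values *Dcn* (-2.42), *Col3a1* (-2.33) and *Col1a2* (-2.21) were not called. Microglial genes overlapped between stages in each of 6 tested, with log2 changes from -0.87 to 0.64, and summed to 6.46 to 28.0 CPM at E14.5 and 6.69 to 29.0 CPM at E18.5. Erythroid genes summed to 102 to 473 and 73.3 to 223 CPM, with 3 or 4 of 9 at 0 in each E18.5 library and 1 of 5 tested called, *Hbb-bt* (-2.04 ± 0.59), which lost the call without E18.5 Ctrl 1 (-1.87) or E18.5 Ctrl 3 (-1.85), with the replicate block (-1.90), with sex of the embryo as a covariate (-1.63) and without the filter (-2.003), and which changed by -1.45 without E14.5 Ctrl 3 and -2.85 within Cell Ranger 5.0.1. *Hba-a1* was called within Cell Ranger 5.0.1 (-1.66) and with all barcodes (-1.83). Of motor and monoaminergic genes 3 of 4 tested were called lower, *Th* (-4.73 ± 0.30) among them. Of these 4, 3 passed the filter through E14.5 alone, so the count is no support for a fall. Of 13 genes known to respond to tissue dissociation 2 were called higher and 1 lower. *Egr1* was at 53.2, 21.7 and 30.3 CPM at E14.5 and 96.9, 86.4 and 98.1 CPM at E18.5, and *Atf3* (1.70 ± 0.49) lost its call without E14.5 Ctrl 3 (1.77), E18.5 Ctrl 1 (1.45) or E18.5 Ctrl 3 (1.73), or without the filter (1.727). How far these other cells enter the changes of the genes above was not tested.

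The make-up of the sorted cells was described with single-cell classes, set on each cell thinned to 5000 UMIs so that depth could not decide them. Of the kept cells, 6242 to 9401 per E14.5 library and 7903 to 9249 per E18.5 library had that many UMIs, and the rest were left out. Hox-detected cells had at least 2 Hox UMIs and Hox-undetected cells none. Cycle-high cells had at least 3 UMIs of the 60 S phase and G2/M genes and cycle-low cells at most 1; cells with 1 Hox UMI (6.45% to 12.5% of a library) or 2 cycle UMIs (14.05% to 23.2%) entered no class. These are ranges of a score and not cell types, and cycle-high does not mean dividing. Hox-detected cells made up 43.7%, 48.2% and 37.9% of the E14.5 libraries and 7.54%, 7.67% and 12.6% of the E18.5 libraries. The difference of 34.0 percentage points had the smallest exact two-sided permutation p that 3 against 3 libraries allow (p = 0.1), which cannot reach 0.05. A reference set took cells with at least 3 UMIs of *En1*, *En2* and *Otx2*, genes of the midbrain, first rhombomere and rostral brain. Of these, 6.68%, 10.3% and 5.34% counted as Hox-detected at E14.5 and 3.42%, 3.65% and 4.22% at E18.5. Whether Hox-expressing cells were among them was not tested, so these shares are not a measured background. At both stages the share in all cells lay above this reference, but at E18.5 the reference was a larger part of it, at similar depth (medians of 11092 to 17681 UMIs in the reference cells and 12471 to 17777 in all).

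Hox-undetected, cycle-high cells had the widest gap between stages of the 4 combined classes, 25.6%, 18.3% and 25.3% at E14.5 and 62.6%, 59.3% and 49.5% at E18.5 (exact permutation p = 0.1). With at least 5 cycle UMIs required, the shares of this class were 13.8%, 8.02% and 15.0% at E14.5 and 45.2%, 41.8% and 33.5% at E18.5. Hox-detected, cycle-high cells were 19.9%, 17.3% and 14.1% of the E14.5 libraries and 3.82%, 3.62% and 5.94% of the E18.5 libraries. Hox-detected, cycle-low cells were 13.6%, 18.7% and 14.4% and then 1.72%, 2.43% and 3.97%. The Hox-undetected, cycle-low share was 11.3%, 14.7% and 15.4% at E14.5 and 12.1%, 15.0% and 15.1% at E18.5, overlapping (exact permutation p = 0.7). Cells with at least 2 UMIs of *Gad1*, *Gad2* and *Slc32a1*, counted within the other classes too, were 2.37% to 5.56% at E14.5 and 0.92% to 1.54% at E18.5, and cells with at least 5 UMIs of *Fabp7* and *Slc1a3* 3.095% to 4.65% and 0.69% to 1.63%. Without thinning, nearly every cell was cycle-high, and the gap in all cycle-high cells was 2.70 instead of 21.3 percentage points.

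**Figure D4:**
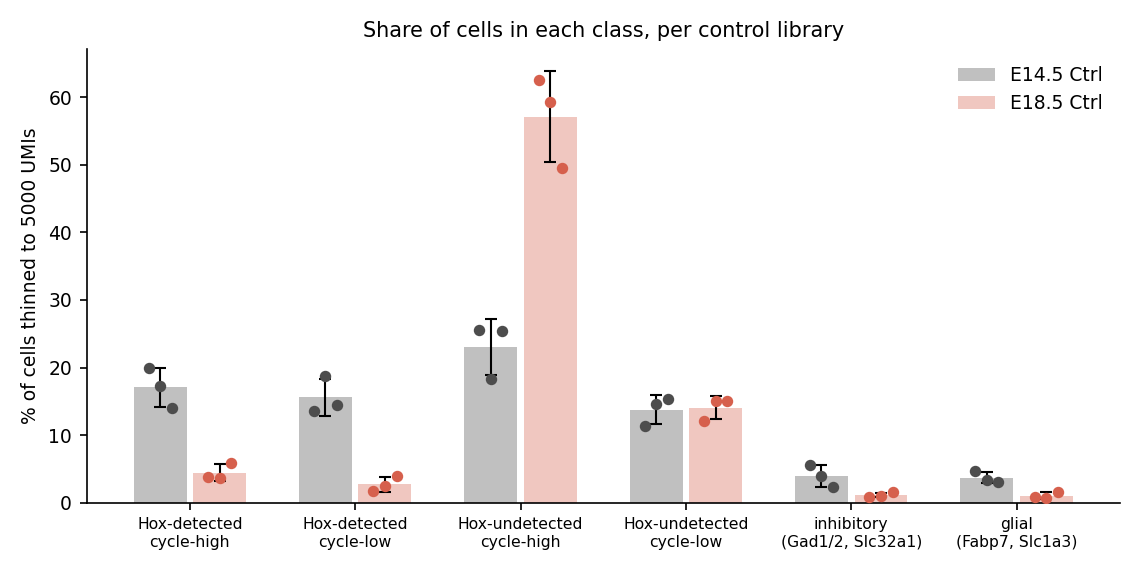
Share of cells in each class (y axis, % of cells thinned to 5000 UMIs; bars are means of the 3 control libraries of a stage, error bars the SD, points the libraries). Hox-undetected, cycle-high cells lie between 18.3% and 25.6% at E14.5 and between 49.5% and 62.6% at E18.5, and the Hox-undetected, cycle-low shares overlap.

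The stage contrast was then fitted within each class, on UMIs summed per library over its cells, to see which genes differed where the split by Hox and cycle UMIs was held. In Hox-detected, cycle-high cells 2703 genes (20.1%) were called higher and 2722 (20.3%) lower, and in Hox-detected, cycle-low cells 2710 (20.5%) and 2777 (21%). In Hox-undetected, cycle-high cells 3508 (25.8%) were called higher and 3558 (26.2%) lower, and in Hox-undetected, cycle-low cells 3196 (24%) and 3065 (23.1%). Of 12562 genes tested in all 4 classes, 920 were called higher in every class and 1158 lower in every class, 629 were called in opposite directions in some pair of classes and 3156 in no class. The classes come from the same libraries, so they are not independent of each other. Within a class the scores still differed between stages, with median Hox UMIs of 8 to 12 at E14.5 and 3 or 4 at E18.5 in Hox-detected cells, and median cycle UMIs of 4 to 6 and 8 to 11 in Hox-undetected, cycle-high cells, and genes that set the classes are not reported in them. How many cells of the E18.5 Hox-detected classes held background Hox UMIs alone was not tested, which bears on each value given for these classes. Within Cell Ranger 5.0.1 the calls in Hox-detected cells numbered 1892 in the cycle-high and 2753 in the cycle-low class.

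Of 8 factors of late-born neurons 6 were called higher and 1 lower in each Hox-detected class, 7 and 0 in Hox-undetected cycle-high cells and 6 and 0 in Hox-undetected cycle-low cells. The member called lower was *Neurod6* (-0.54, -0.90, 0.35 and 0.31), which was not called in the Hox-undetected classes. *Nfix* changed by 2.17, 2.43, 1.97 and 3.16, *Nfia* by 1.22, 1.42, 1.23 and 1.69 and *Nfib* by 1.02, 1.11, 1.17 and 1.65. *Tcf4*, *Zic1*, *Pax6*, *Neurod1* and *Eomes* were also called higher in all 4 classes, *Neurod1* by 2.10, 1.46, 1.71 and 2.27. In each of these sentences the 4 values stand for Hox-detected cycle-high, Hox-detected cycle-low, Hox-undetected cycle-high and Hox-undetected cycle-low cells. Lower in every class were *Zfhx3* (-2.62, -3.32, -4.21 and -3.75), *Zfhx4*, *Onecut2* (-0.81 in the first class to -1.90 in the last) and, of the brainstem and precerebellar genes, *Meis2* (-1.81, -1.90, -4.50 and -3.89), *Lhx2*, *Evx1*, *Foxb1*, *Crabp1* and *Robo3* (-0.97, -1.29, -5.08 and -5.80). *Cdkn1c* fell (-1.35, -1.11, -3.02 and -3.32) and *Ccnd2* rose (1.84, 2.09, 1.01 and 2.31) in all 4. *Atoh1* was called lower in 3 classes, with changes of -1.80, -1.88, -0.80 and -0.65, and not in Hox-detected, cycle-low cells (adjusted p = 0.07).

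Other groups differed by class in their counts. GABA and glycine receptor genes gave 10 higher and 1 lower of 15 in Hox-detected cycle-high cells, 11 and 0 of 15 in Hox-detected cycle-low, 2 and 7 of 14 in Hox-undetected cycle-high and 5 and 4 of 14 in Hox-undetected cycle-low cells. *Gabra3* changed by 0.28, 0.46, -1.43 and -0.93, with no call in the first 2. Markers of other cells were called in the Hox-detected classes as well. In the cycle-high and cycle-low class 3 and 4 of 11 glial genes, 4 of 5 and 1 of 4 oligodendrocyte genes and 2 and 3 of 5 Purkinje cell genes were called higher. Of all genes tested, 20.1% and 20.5% were called higher in these 2 classes. Lower calls in the marker lists are not given here, and counts near those shares say nothing particular about the markers. *Gad2* changed by 1.43, 1.25, -2.21 and -2.16 over the 4 classes, while *Gad1* and *Slc32a1* were called in neither Hox-detected class. The part of such cells in the receptor counts was not tested. Cytoskeleton genes gave 8 higher and 9 lower of 30, 6 and 9 of 30, 1 and 21 of 31, and 5 and 16 of 30. Sonic hedgehog genes gave 5 and 2 of 15, 1 and 1 of 12, 9 and 1 of 14, and 9 and 2 of 14. *Ebf1* was called lower in both Hox-detected classes and in neither of the others (-0.86, -1.06, -0.05 and -0.29). Over all genes tested, 20.1%, 20.5%, 25.8% and 24% were called higher in the 4 classes, in the same order. The shares called lower were 20.3%, 21%, 26.2% and 23.1%. Counts near these shares say nothing particular about a list, and the differences between classes were not tested.

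In *Atoh1*S193A/- littermates the same stages were compared without any control library. Of 13694 genes tested 2477 (18.1%) were called higher and 2602 (19%) lower at E18.5. Of the 7488 control calls tested there, 4412 (58.9%) were called in the same direction and 9 in the opposite one, and those 4412 are 86.9% of the 5079 calls in *Atoh1*S193A/- libraries. Of 1991 control calls of at least 2-fold, 1631 (81.9%) were called in the same direction and 0 in the opposite one. The embryos of the 2 contrasts come from shared litters. Without E18.5 *Atoh1*S193A 1 the calls fell to 1396 higher and 1583 lower, without E18.5 *Atoh1*S193A 2 to 1315 and 1440, and without E14.5 *Atoh1*S193A 1 the lower calls were 1672.

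Gene groups were counted in these embryos as in the controls. All 16 Hox genes tested were called lower (median log2 change -3.50), as were 10 of 12 rhombic lip genes (-3.96) and 10 of 16 brainstem genes (-2.33), and 17 of 21 granule cell genes were called higher (1.08). The same filter was used, so genes that passed it through 1 stage alone had their direction built in, and the counts are descriptions. Hox groups 6 to 9 summed to 2.41, 1.04 and 8.48 CPM in the E18.5 *Atoh1*S193A libraries. *Atoh1* was at 115, 81.5 and 92.5 CPM in E14.5 and 53.7, 42.4 and 30.2 CPM in E18.5 *Atoh1*S193A libraries, a change of -1.19 ± 0.22. A point mutation leaves the counted 3′ end in place, so this level does not check the genotype. Of the cycle lists, 6 of 30 S phase genes and 10 of 30 G2/M genes were called higher, with medians of 0.41 and 0.58 where the controls had 1.01 and 1.28. Over all genes tested in *Atoh1*S193A libraries 18.1% were called higher, so the S phase count is near that of genes at large. *Mki67* changed by 1.78 ± 0.33 in *Atoh1*S193A libraries, against 2.58 ± 0.30 in controls. Hox-undetected, cycle-high cells were 27.8% to 31.3% of the E14.5 and 50.5% to 64.2% of the E18.5 *Atoh1*S193A libraries, and Hox-detected cells 36.04% to 41.4% and 4.27% to 8.87%. In E14.5 *Atoh1*S193A 2 the Hox genes of groups 6 to 9 summed to 22.6 CPM, below the 137 and 139 CPM of the other 2.

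**Figure D5:**
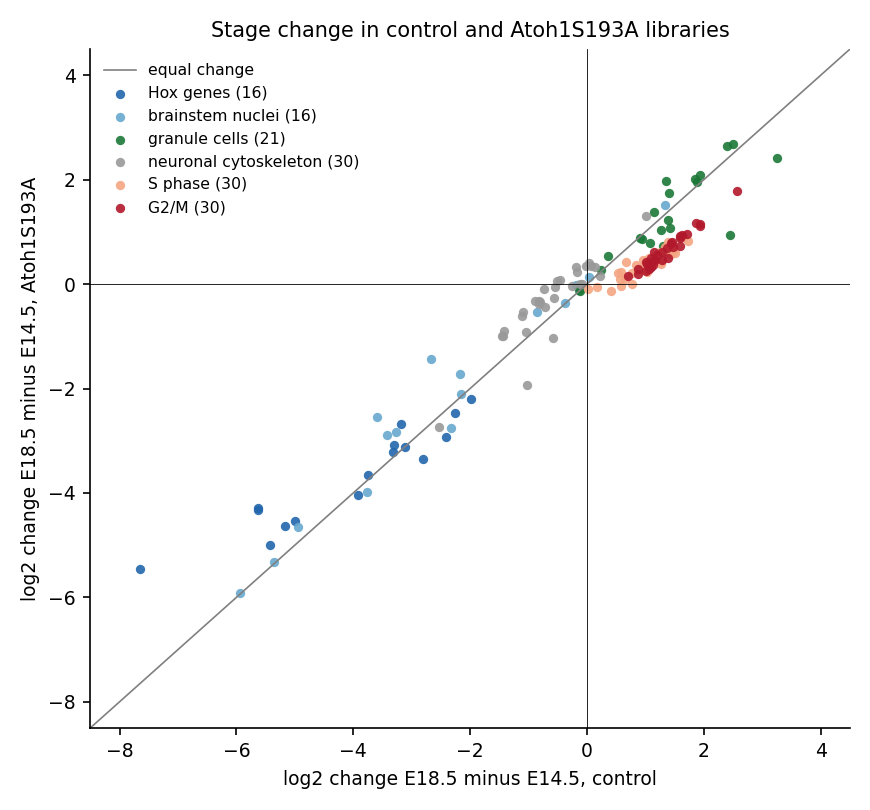
Stage change of listed genes in control libraries (x axis, log2 change, E18.5 minus E14.5) and in *Atoh1*S193A libraries (y axis, the same scale; 1 point per gene tested in both, number of genes in brackets; the gray line marks equal change). The Hox genes plotted were all called lower, 12 of 16 brainstem genes were called lower in controls and 10 of 16 in *Atoh1*S193A libraries, and 18 and 17 of 21 granule cell genes were called higher. These counts include genes that passed the filter through the stage where they were high, so they are descriptions. The G2/M genes lie below the line, with medians of 1.28 in controls and 0.58 in *Atoh1*S193A libraries.

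Whether the stage change differed by genotype was tested with an interaction term over all 12 embryonic libraries. By edgeR, 0 of 14021 genes (0%) passed, the smallest adjusted p was 0.061, and 1820 had an unadjusted p under 0.05. Each *Atoh1*S193A/- embryo had a control from its own litter, and with the litter as a block 2552 genes passed, 1170 (8.34%) with a change that was more positive and 1382 (9.86%) with one that was more negative in *Atoh1*S193A/- embryos. By replicate number alone as the block the count was 0. The count with the litter block was 1475 without the E14.5 litter 3, 710 without the E18.5 litter 2, 691 without the E18.5 litter 3, up to 2930 without 1 of the others and 3507 in the litters with both libraries from Cell Ranger 5.0.1, which leave a lone E14.5 litter. Because 2 of the 3 E14.5 control files come from the other software version, software and the interaction are partly mixed.

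With the litter block, 27 of 30 S phase and all 30 G2/M genes were called with a more negative stage change in *Atoh1*S193A/- embryos (medians -0.62 and -0.66), as were 10 of 16 Sonic hedgehog genes. In the positive direction were 19 of 31 cytoskeleton, 19 of 39 synaptic and 17 of 34 ion channel genes and 7 of 8 pan-neuronal markers. Summed G2/M levels at E14.5 were 706 to 1165 CPM in controls and 1066 to 2020 CPM in *Atoh1*S193A libraries, and at E18.5 2314 to 3184 and 2215 to 3353 CPM. Summed S phase levels were 735 to 990 and 1008 to 1448 CPM at E14.5, and 1454 to 1896 and 1362 to 1987 CPM at E18.5. A more negative change is thus no lower cycle level at E18.5. *Ccnd1* was at 44.1, 50.9 and 44.3 CPM at E14.5 and 157, 137 and 114 CPM at E18.5 in controls (1.55 ± 0.13), and changed by 0.07 ± 0.14 in *Atoh1*S193A/- embryos, an interaction of -1.47. No Hox gene of 20 tested was called in either direction. These calls exist with the litter block and not without it.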

How the data were processed

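Single-cell RNA was captured from sorted TdTomato-positive hindbrain cells with the 10x Genomics 3′ v3.1 chemistry. The authors aligned to mm10, extended by WPRE of the reporter, and deposited filtered UMI counts per gene and cell, with no normalization. Their methods name Cell Ranger 5.0.1 with its default settings, which leave out intronic reads and count by strand, while the deposited file headers name version 3.1.0 for E14.5 Ctrl 1 and 2. The counts of genes with near-identical copies or overlapping neighbors are uncertain.

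Cells with at least 1000 genes and under 10% mitochondrial UMIs were kept (51626), and their UMIs were summed per library, the embryo being the replicate. Sums ranged from 116937816 to 174406996 UMIs, and replicate sums differed by more than sampling noise (chi-square per degree of freedom of 45.2 or more). The values after ± are SEs of the edgeR fit and include its estimate of the spread between embryos. No doublet caller was run, and leaving out the 5% of cells with the most UMIs was an alternative. Genes with at least 1 CPM in at least 3 libraries were tested with edgeR 4.0.16 (quasi-likelihood test, TMM, R 4.3.3), called at a Benjamini-Hochberg adjusted p under 0.05 and an absolute log2 change over 0.25, and checked on simulated counts, where 90% of 2-fold and 100% of 4-fold changes in the control contrast were recovered, against 54% and 95% for the stage by genotype interaction without a litter block. Stage, genotype and their interaction were coded from the labels; DESeq2 1.42.0 was an alternative. Class sums, exact permutation tests and promoter letters were computed in Python 3.11.15.

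The control embryos of the same replicate number at the 2 stages deviated together (r of 0.147, 0.123 and 0.172, against -0.167 to 0.004 for other pairs), although nothing in the labels ties them, so the replicate number was also fitted as a block. *Atoh1*S193A/- embryos and controls of one stage and number are littermates according to the study, with r of 0.559 to 0.850. The comparison and the gene lists were chosen with earlier results of these data known. Named genes are Atoh1, WPRE, the 10 largest rises and falls by the rule given with them, every tested member of the Hox, rhombic lip, timing and early and late neuron lists, up to 4 called genes per direction with at least 10 CPM in other lists, any list member not called, up to 5 interaction genes per direction, and the 3 most abundant markers of a cell type. That rule kept called genes without overlap between stages alone. Some genes that this rule names are not reported here. The P5 libraries were not used here.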

Additional observations from a re-analysis of the deposited data

Results flagged for a closer look

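The stage change differed between genotypes for 2552 genes when the litter was fitted as a block over the 12 embryonic libraries, by edgeR's interaction test. Without the block no gene passed. The interactions below are from the fit with the block, and the stage changes beside them from the fit of each genotype without it, so the latter do not subtract to the former. *Ccnd1* rose in controls (1.55) and changed by 0.07 in *Atoh1*S193A/- embryos, an interaction of -1.47 (adjusted p = 0.0028). *Hes1*, a Notch target, changed by -0.41 and -2.03, an interaction of -1.58. *Cdon*, the Sonic hedgehog co-receptor, changed by -0.90 and -2.34, an interaction of -1.45. *Foxj1*, a factor of ciliated cells, had an interaction of -1.86, and *Cyr61*, a secreted matrix protein, one of -1.68. In the other direction *Calb2*, calretinin, changed by 0.37 in controls and 1.83 in *Atoh1*S193A/- embryos, an interaction of 1.53. *Tfap2b* changed by -2.84 and -1.39, an interaction of 1.59, and *Pou4f1* by -3.59 and -2.55, an interaction of 0.99. *Rab3b*, a vesicle GTPase, had an interaction of 0.83 and *Nrsn2*, neurensin 2, one of 0.81. The summed choroid plexus level was 2989 to 16705.5 CPM in E14.5 *Atoh1*S193A libraries and 858 to 3066 CPM in E14.5 controls, and its part in these values was not tested.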

How the results depend on the processing

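All 19 alternatives of the control contrast left 0 of the 7561 calls in the opposite direction, and the share of calls that were made again ran from 69.4% within Cell Ranger 5.0.1 to 98.9% with DESeq2. Over 219 named genes 3910 of 4034 values stayed on their side of the threshold, 91 lost and 31 gained a call, and 2 that were called in one of the fits changed sign, both at a mitochondrial limit of 5%, *Lmx1a* (-0.42) and *Neurod2* (-0.00297). Values called in neither fit changed sign too, such as that of *C1qa* within Cell Ranger 5.0.1 (0.45 to -0.14). The filter set the counts of at least 2-fold changes, 597 higher and 448 lower with genes in 10% of cells, 1610 and 1950 with filterByExpr, 1864 and 2111 with none. Without each library the control calls ran from 3077 to 3636 higher and 3056 to 3642 lower, those in *Atoh1*S193A libraries from 1315 to 2942 and 1440 to 2845, and the interaction calls from 0 to 10.

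With the replicate number as a block the paired control fit gave 3947 higher and 3669 lower calls, 1050 and 1026 of them at least 2-fold, *Atoh1*S193A libraries 1927 and 2121, and the 4 classes 5388, 5513, 7005 and 6396 calls. The block changed no call beside those of *Hbb-bt*, *Ngfr*, *Igf2bp1* and *Calb2* among named genes. With litter as a block the interaction gave 2552 calls, and 691 to 2930 without 1 litter (1475, 710 and 691 among them, added after seeing the data). Within Cell Ranger 5.0.1 the Hox-detected classes gave 1892 and 2753 calls, and the cause was not tested. For *Atoh1*S193A libraries, all from that version, it is no alternative.

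Shares depended on thinning, by construction, and the differences in percentage points follow. Without thinning they were 2.70 for cycle-high, -34.7 for Hox-detected cycle-high, -1.28 for Hox-detected cycle-low, 41.4 for Hox-undetected cycle-high and -4.30 for glial cells. At 3000 UMIs they were -5.46 for Hox-detected cycle-high, -20.2 for Hox-detected cycle-low, 2.71 for Hox-undetected cycle-low and -1.65 for glial cells. Hox-detected cycle-high cells differed by -3.45 at higher class limits, added after seeing the data. The Hox-undetected cycle-low difference of 0.293 was -0.0578 at a mitochondrial limit of 5% and -0.954 to 1.26 without each library. Genes under the filter of 1 CPM in 3 libraries were compared with the looser filters alone, where their low counts limit the precision.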
